A study of Mus musculus with 8 samples.

Results

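Nuclei with a urothelial marker signature were picked out of snRNA-seq (single-nucleus RNA sequencing) of the mouse kidney. A nucleus was a member when at least 2 of the 6 genes Upk1b, Upk3a, Krt5, Trp63, Psca and Krt19 had 1 or more UMIs (unique molecular identifiers, each marking 1 captured RNA molecule) and when Aqp2, the water channel of collecting duct principal cells, and Slc12a1, the NKCC2 cotransporter of the thick ascending limb, had at most 1 UMI each. The rule found 563 members among 81391 nuclei that passed quality control (0.692%, with a 95% Wilson interval of 0.637 to 0.751% for counting error only). The 8 libraries ranged from 0.480 to 0.798%, so the spread between mice was wider than this interval. The rule used the values of these genes, so their levels in the members are a description and not a result. The label held for most members but not for all: 407 of them had a UMI of Upk1b, Upk3a, Krt5 or Krt19 and carried the urothelial program, whereas 156 had only Trp63 and Psca and carried a different one, with Prox1, Bsnd and Atp10b among its genes. The first set is called uroplakin/keratin nuclei here and the second Trp63/Psca nuclei. This division was made after the values were seen.

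The 8 libraries came from 8 male mice killed at 14 weeks of age, 2 in each of 4 groups. Control (Ctrl) mice were Bmal1 lox/lox, and cKOt mice were their Bmal1 lox/lox/Pax8-rtTA/LC-1 littermates, both on a C57BL/6J background under a 12-h light and 12-h dark cycle. Doxycycline was given to both genotypes for 2 weeks from 8 weeks of age (2 mg/ml in the drinking water), which in cKOt mice switches on the LC-1 Cre recombinase through the Pax8-driven transactivator in cells that use the Pax8 promoter. Kidneys were taken at ZT4, in the light phase, or at ZT16, in the dark phase, so the groups were Ctrl ZT4, Ctrl ZT16, cKOt ZT4 and cKOt ZT16. Cre activity was not measured cell by cell, and the counts of Bmal1 (Arntl in the files) do not read the deleted exon alone, so they are no check of the deletion.

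The urothelium is the layered epithelium that lines the urinary tract, starting in the kidney over the papilla and the renal pelvis. Its basal cells carry Krt5 and the transcription factor p63 (Trp63), sit on laminin through integrin beta 4 and can renew the layers above after injury. Its superficial umbrella cells carry plaques of uroplakins on the side of the urine, and Gata3, Pparg, Grhl3, Elf3 and Foxa1 are known regulators of its differentiation. Uroplakin Ia pairs with uroplakin II, and uroplakin Ib with uroplakin III, before plaques form.

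Promoter sequences of 4 genes are given, since the members' identity turns on the uroplakins (Upk1a, which the rule did not use, and Upk3a, which it did) and the comparisons of genotypes and times turn on Npas2 and Ranbp3l. Each runs from 250 bases before to 50 bases after the RefSeq transcription start on GRCm38.p6, 5′ to 3′ on the strand of the gene. Of 16 genes looked up, 10 had an entry in the table used. The windows are Upk1a at chr7:30612685-30612984 on the minus strand, Upk3a at chr15:85016891-85017190 on the plus strand, Npas2 at chr1:39194022-39194321 on the plus strand and Ranbp3l at chr15:8967699-8967998 on the plus strand.
Upk1a: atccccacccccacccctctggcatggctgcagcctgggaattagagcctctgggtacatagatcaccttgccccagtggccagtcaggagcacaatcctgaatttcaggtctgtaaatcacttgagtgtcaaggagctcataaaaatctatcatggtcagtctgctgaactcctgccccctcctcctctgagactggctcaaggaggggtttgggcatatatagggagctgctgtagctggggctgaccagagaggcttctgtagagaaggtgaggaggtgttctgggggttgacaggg
Upk3a: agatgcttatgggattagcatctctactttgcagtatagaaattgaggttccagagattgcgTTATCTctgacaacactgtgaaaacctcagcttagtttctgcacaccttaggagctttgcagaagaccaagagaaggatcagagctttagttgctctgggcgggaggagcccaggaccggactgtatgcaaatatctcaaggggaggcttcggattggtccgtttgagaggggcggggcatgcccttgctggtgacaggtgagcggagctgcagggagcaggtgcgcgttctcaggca
Npas2: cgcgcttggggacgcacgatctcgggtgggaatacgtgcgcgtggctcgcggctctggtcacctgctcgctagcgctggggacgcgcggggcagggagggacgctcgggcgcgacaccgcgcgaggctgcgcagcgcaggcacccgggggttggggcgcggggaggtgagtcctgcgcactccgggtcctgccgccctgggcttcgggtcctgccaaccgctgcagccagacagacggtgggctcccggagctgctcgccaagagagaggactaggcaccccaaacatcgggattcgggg
Ranbp3l: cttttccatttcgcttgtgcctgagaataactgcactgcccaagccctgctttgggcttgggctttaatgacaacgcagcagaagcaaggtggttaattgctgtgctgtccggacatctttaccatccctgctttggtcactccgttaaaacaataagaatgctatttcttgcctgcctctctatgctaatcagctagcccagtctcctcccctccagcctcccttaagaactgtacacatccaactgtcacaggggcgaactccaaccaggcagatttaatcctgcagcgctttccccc

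Capitals mark a match, on either strand, to any of 5 motifs that were searched. These were the E-box CACGTG and its variant CACGTT, to which BMAL1 partners bind, the ROR and REV-ERB site AGGTCA, the GATA site AGATAA and the Grainyhead site AACCGGTT. The match in Upk3a is the reverse complement of the GATA site and starts 188 bases before the transcription start. No match of these letters lay in the other three windows. Among 32851 RefSeq windows of the same length, 7.15% held CACGTG, 4.68% CACGTT, 16.3% AGGTCA, 11.2% AGATAA and 0.146% AACCGGTT.

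Each library gave 8758 to 10975 nuclei after quality control, with 36548873 to 54500820 UMIs in all and a median of 3003.5 to 4830 UMIs per nucleus. Members had a median of 4316 to 5653 UMIs, and their sum per library was 254328 to 473655 UMIs. Of 80565 distinct barcodes, 823 (1.02%) occurred in more than 1 library, and 0 of the 563 members shared a barcode. Replicate libraries differed beyond counting noise (chi-square per degree of freedom 1.96 to 3.47 over the members' summed counts). Levels are given in CPM, UMIs of a gene per 1000000 UMIs summed over all nuclei of a class in a library. One library stood apart in the uroplakin/keratin nuclei: in Ctrl ZT4 replicate 1 the thiazide-sensitive cotransporter Slc12a3, a distal convoluted tubule gene, reached 745 CPM, against 21.6 to 68.6 CPM in the other 7 libraries. The 4 genes of the distal list (Slc12a3, Trpm6, Slc8a1 and Calb1) summed to 5085 CPM there, with the lowest of the 8 libraries at 458 CPM.

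Members made up 0.798% and 0.742% of nuclei in Ctrl ZT4, 0.781% and 0.788% in cKOt ZT4, 0.732% and 0.624% in Ctrl ZT16 and 0.480% and 0.574% in cKOt ZT16. Under this rule, the 4 libraries of ZT16 lay below the 4 of ZT4. The share was 0.602% ± 0.105 at ZT16 and 0.777% ± 0.0246 at ZT4 (SD, n = 4 mice each), a difference of -0.175 percentage points (exact two-sided permutation test, p = 0.0286, the smallest that 70 splits allow). The difference was -0.0920 within Ctrl and -0.258 within cKOt, with 2 mice a group. It did not pass the exact two-sided permutation test under 4 other definitions of the members: -0.0615 points with at least 3 markers (p = 0.143), -0.154 without Krt19 (p = 0.0571), -0.149 without the Trp63/Psca nuclei (p = 0.0571) and -0.0524 after nuclei were thinned to 1000 UMIs (p = 0.343). For the thinned setting the whole rule, limits included, was applied anew to the thinned counts. It found 205 members among 80250 nuclei. Nuclei over a limit before thinning could enter, so these are not simply the members that were left. The thinned setting is thus no comparison of the same set at equal depth. The base share was smaller under each of the 4 other definitions. The ratio of the ZT16 to the ZT4 share was 0.775 under the rule used throughout and 0.790, 0.774, 0.740 and 0.813 under the 4 others in the same order. The deepest library by median UMIs, cKOt ZT16 replicate 1, also had the lowest share, and thick ascending limb nuclei (at least 3 UMIs of Slc12a1) took 17.8% ± 4.73 of nuclei at ZT4 and 24.1% ± 4.25 at ZT16 (SD, n = 4). Their part in the members' share was not tested. Nuclei over an Aqp2 or Slc12a1 limit were left out of these shares, by their thinned counts in the thinned setting, and no definition dropped the limits. Without thinning, nuclei over a limit with 2 or more markers numbered 15 and 50 in Ctrl ZT4 and 25 and 52 in cKOt ZT4. At ZT16 they numbered 37 and 28 in Ctrl and 25 and 48 in cKOt. Ctrl ZT4 replicate 1 had 79 members among 9896 nuclei, and Ctrl ZT16 replicate 1 had 78 among 10651. Counting both kinds reverses the order of these libraries, so the times then overlap.

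Between genotypes the share was 0.656% ± 0.154 in cKOt and 0.724% ± 0.0729 in Ctrl (SD, n = 4 each). The difference of -0.0685 points was smaller than the spread between mice (exact two-sided permutation test, p = 0.429). It was 0.0143 points at ZT4 and -0.151 points at ZT16.

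The 6 markers met in 38 combinations. Most members had few of them: 349 had 2 markers, 126 had 3, 74 had 4, 14 had 5 and 0 had all 6. Trp63 was found in 377 members, Upk1b in 315, Psca in 275, Krt19 in 250, Upk3a in 174 and Krt5 in 51. The most frequent combination was Trp63 with Psca and nothing else, in 156 members (27.7%), followed by Upk1b with Trp63 in 53 and by Upk1b, Trp63 and Krt19 in 45. The combination of Upk1b, Upk3a, Psca and Krt19, in 37 members, held no basal marker. Each library contained both kinds of members, 30 to 63 uroplakin/keratin nuclei (178704 to 320570 UMIs) and 12 to 28 Trp63/Psca nuclei (65597 to 211821 UMIs).

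The uroplakin/keratin nuclei carried the urothelial program beyond the genes of the rule. Of 30 further urothelial genes in the list, 23 were higher in these nuclei in every library than in all other nuclei in any library and 0 were lower. Across 18699 genes, 6.74% were higher in this way and 5.49% lower, and the median fold was 14.02 for the list and 1.13 for all genes. Since the cells were chosen by their own RNA, this is a description of the set and no test.

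Upk1a, the partner of uroplakin II, was at 185 and 159 CPM in Ctrl ZT4, 221 and 267 in cKOt ZT4, 275 and 205 in Ctrl ZT16 and 201 and 178 in cKOt ZT16. In the other nuclei of the same libraries Upk1a was at 2.40 to 5.47 CPM, so no library of one set came near the other. Upk2 itself was at 27.0 to 137 CPM and Upk3b at 16.2 to 67.2 CPM. Upk1b, a gene of the rule, was at 675 and 580 CPM in Ctrl ZT4, 814 and 745 in cKOt ZT4, 512 and 606 in Ctrl ZT16 and 313 and 448 in cKOt ZT16. Upk3a, whose protein pairs with uroplakin Ib, was at 153 to 319 CPM.

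Among the regulators, Gata3, a zinc-finger factor of luminal urothelium, was at 397 to 630 CPM against 43.1 to 55.8 CPM in other nuclei. Pparg, the nuclear receptor that drives urothelial differentiation, was at 347 and 646 CPM in Ctrl ZT4, 671 and 435 in cKOt ZT4, 440 and 824 in Ctrl ZT16 and 789 and 760 in cKOt ZT16, against 20.3 to 37.6 CPM elsewhere. No group of mice stood clear of the others for either factor. Klf5 (170 to 226 CPM), Foxa1 (33.6 to 61.1), Grhl3 (26.7 to 127) and Elf3 (9.36 to 53.9) were all higher than in other nuclei in every library. A UMI of Gata3 was found in 75.4% of the 407 nuclei, against 2.43% of endothelial nuclei (at least 3 UMIs of Flt1), a type that should hold little of it. After thinning to 1000 UMIs the shares were 33.5% and 0.949%. Collecting duct principal cells are known to use Gata3 too, and 69.2% of their nuclei (at least 3 UMIs of Aqp2) had it. Upk1a told those apart, with a UMI in 31.4% of the uroplakin/keratin nuclei, 1.25% of collecting duct nuclei and 0.579% of endothelial nuclei.

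The simple keratins Krt7 (151 to 231 CPM), Krt8 (84.9 to 179) and Krt18 (80.9 to 160), intermediate filaments of luminal epithelia, were present in all 8 libraries. Krt15, a keratin of basal cells, ranged more widely, from 34.4 to 173 CPM. Krt13 and Krt17 had 0 UMIs, Krt4 had 1, Krt14 had 3 and Krt20, a keratin of the mature umbrella cell, had 12 over all libraries, of which most fell in cKOt ZT4 replicate 1 (26.1 CPM). Sprr1a, a listed gene that encodes a cornified envelope protein of stratified epithelia, was at a mean of 280 CPM and 166-fold over other nuclei. Outside the lists, high folds over other nuclei were found for Fer1l4 (mean 90.4 CPM, 203-fold), Syt8 (98.0 CPM, 196-fold), Capn13 (338 CPM, 194-fold) and Ankfn1 (871 CPM, 169-fold). Mir205hg, the host transcript of the epithelial microRNA miR-205, was at a mean of 123 CPM and 152-fold.

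**Figure D1:**
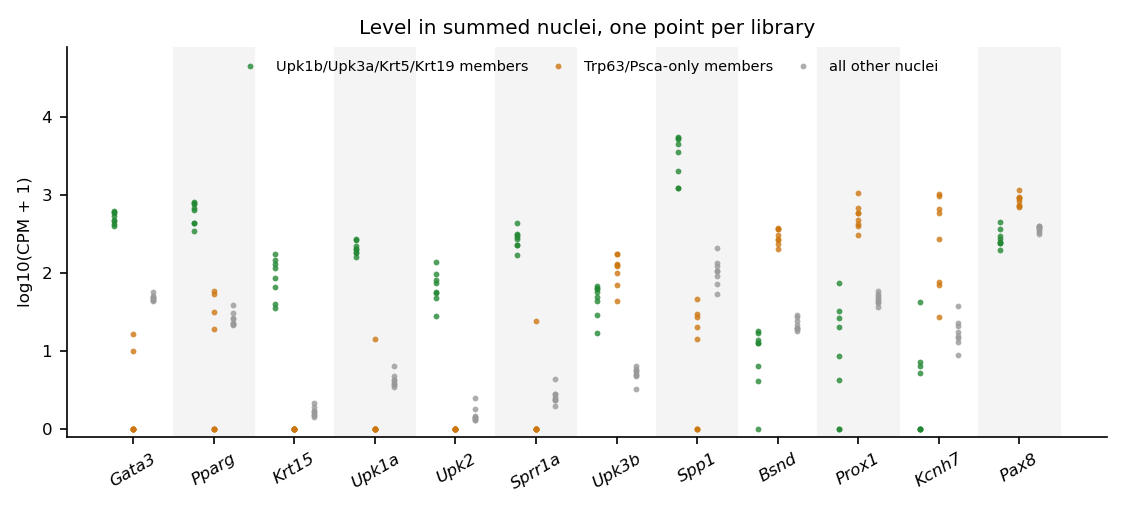
Levels of 12 genes, as log10(CPM + 1) of UMIs summed over the nuclei of a class in a library (y axis), in both sets of members and in all other nuclei; a point is 1 library. Upk1a, at 159 to 275 CPM in the uroplakin/keratin nuclei, and Bsnd, at 202 to 372 CPM in the Trp63/Psca nuclei, each mark 1 of the sets of members.

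Genes of transport and sensing were sampled with a list of 12. In the list, 4 genes were higher than in all other nuclei in every library and Trpm7 was lower, against 6.74% and 5.49% of all genes. Against collecting duct nuclei, 3 genes were higher in this way (Slc14a1, Kcnma1 and Piezo2) and 4 lower (Scnn1b, Scnn1g, Aqp3 and Piezo1). Among 18086 genes, 4.78% were higher and 2.53% lower than in collecting duct nuclei. Slc14a1, the urea transporter UT-B, was at 38.6 to 209 CPM, and Scnn1g, the gamma subunit of the epithelial sodium channel, at 50.4 to 103 CPM. Kcnma1, the large-conductance potassium channel, was at 467 and 552 CPM in Ctrl ZT4, 521 and 619 in cKOt ZT4, 427 and 414 in Ctrl ZT16 and 291 and 464 in cKOt ZT16. Piezo2, a stretch-gated channel that the bladder uses to sense filling, was at 303 to 532 CPM. For Kcnma1 the 4 ZT16 libraries lay below the 4 of ZT4, while for the other three genes the times overlapped, as did the genotypes. None of the 11 list genes tested passed the test between times or genotypes.

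Of 16 growth factor and receptor genes, 6 were higher in every library than in other nuclei (Shh, Fgfr3, Tgfa, Wnt4, Wnt5a and Wnt7b) and Bmp4 was lower, against the same 6.74% and 5.49% of all genes. Against collecting duct nuclei, 4 were higher (Shh, Fgfr3, Tgfa and Wnt5a) and Egfr was lower, with 4.78% and 2.53% of all genes. Shh, the ligand by which urothelium signals to the stroma beneath it, was at 6.51 to 31.2 CPM and rested on 32 UMIs. Its stromal target Bmp4 had 18 UMIs. The ligands Wnt4 (71.7 to 119 CPM), Wnt7b (28.1 to 102) and Wnt5a (23.2 to 112) were found in every library, as were the EGF receptor ligand Tgfa (83.9 to 202) and the receptor Fgfr3 (45.6 to 145). None of the 11 tested passed the test in the averaged contrasts of time or genotype.

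The uroplakin/keratin nuclei were next divided by the layer markers of the rule. Nuclei with Krt5 or Trp63 and no Upk3a numbered 173 (basal-marked, 822457 UMIs) and nuclei with Upk3a and neither Krt5 nor Trp63 numbered 117 (superficial-marked, 612834 UMIs). The other 117 had both or none. The UMIs were pooled over libraries for the levels, and a gene was counted as higher in one layer when it was so in at least 7 of the 8 libraries. Among 9142 genes with at least 20 UMIs, 10.6% were higher in basal-marked and 7.69% in superficial-marked nuclei by this count. It is a description, since the layers were set by genes of the same nuclei.

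Of the 30 urothelial genes outside the rule, 23 had at least 20 UMIs in these nuclei, of which 4 were higher in basal-marked and 10 in superficial-marked nuclei, and the remaining 9 were counted for neither. All 5 measured genes of the basal list were higher in basal-marked nuclei and all 4 of the superficial list in superficial-marked nuclei, where measured means the same 20 UMIs. Upk1a was at 14.6 CPM in basal-marked and 450 CPM in superficial-marked nuclei and was higher in the latter in 8 of 8 libraries. Upk2 went from 12.2 to 170 CPM, Grhl3, the Grainyhead factor of umbrella cells, from 19.5 to 111 CPM, and Sprr1a from 142 to 454 CPM. Krt8 (59.6 and 206 CPM) and Krt18 (55.9 and 197 CPM) were higher in superficial-marked nuclei too. In the opposite direction, Krt15 was at 197 CPM in basal-marked and 13.1 CPM in superficial-marked nuclei, the hemidesmosome integrin Itgb4 at 209 and 50.6, the laminin chain Lamb3 at 119 and 37.5 and P-cadherin (Cdh3) at 91.2 and 11.4. Gata3 (455 and 574 CPM) and Foxa1 (47.4 and 40.8 CPM) were counted for neither layer.

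Of 11 measured genes of transport and sensing, 2 were higher in basal-marked and 1 in superficial-marked nuclei, against 10.6% and 7.69% of all genes. Piezo2 (657 CPM in basal-marked and 238 CPM in superficial-marked nuclei) and the osmosensitive channel Trpv4 (148 and 35.9) were higher in basal-marked nuclei in 8 of 8 libraries, and Scnn1b, the beta subunit of the epithelial sodium channel (49.9 and 108 CPM), in superficial-marked nuclei in 7. Kcnma1 was at 537 and 540 CPM. Of 11 measured growth factor and receptor genes, 3 were higher in basal-marked and 4 in superficial-marked nuclei. The receptors Egfr (546 and 307 CPM) and Fgfr2 (826 and 405) and the ligand Wnt5a (64.4 and 14.7) were higher in basal-marked nuclei in all libraries. The EGF receptor ligands Tgfa (58.4 and 238 CPM) and Hbegf (25.5 and 63.6) and the coreceptor Erbb2 (21.9 and 78.3) were higher in superficial-marked nuclei in all libraries. Of 15 clock genes with enough UMIs, 4 were higher in basal-marked nuclei and 0 in superficial-marked nuclei. The clearest was Npas2, a partner of BMAL1, at 207 and 52.2 CPM and higher in 8 of 8 libraries. Rora (929 and 620 CPM), Per2 (87.5 and 55.5) and Cry2 (83.9 and 50.6) were so in 7.

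**Figure D2:**
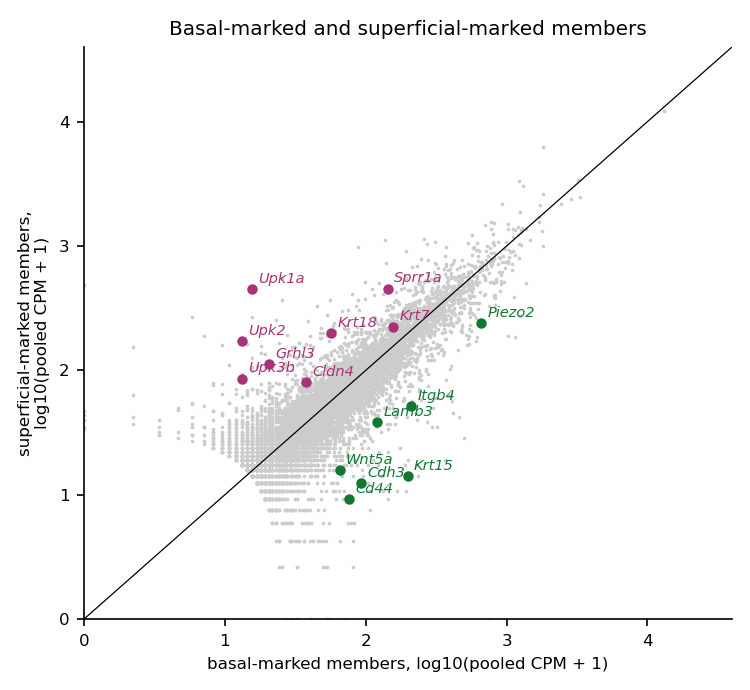
Pooled levels in basal-marked (x axis) and superficial-marked (y axis) uroplakin/keratin nuclei, as log10(pooled CPM + 1); gray points are genes with at least 20 UMIs, named points are listed genes and the diagonal marks equal levels. Upk1a (14.6 and 450 CPM) lies far above the diagonal and Krt15 (197 and 13.1 CPM) far below it.

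The 156 Trp63/Psca nuclei did not carry the urothelial program. Of the same 30 genes, 5 were higher than in all other nuclei in every library (Upk3b, Klf5, Dsp, Itgb4 and Lamb3) and 9 were lower, with 2.89% and 7.45% of 15903 genes higher and lower in this way. Upk2, Krt15, Grhl3, Foxa1, Slc14a1 and Capn13 had 0 UMIs in these nuclei, Upk1a had 1 and Gata3 had 2. With a summed depth of 65597 to 211821 UMIs per library, low levels could not be detected. Upk3b, an uroplakin also known from mesothelium, was at 42.5 to 172 CPM.

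Other genes marked the set. Prox1, a homeobox factor, was at 677 and 473 CPM in Ctrl ZT4, 430 and 307 in cKOt ZT4, 1073 and 590 in Ctrl ZT16 and 582 and 402 in cKOt ZT16. Both Ctrl libraries were above both cKOt libraries at each time, the genotypes overlapped across times, and Prox1 was not called between genotypes. Bsnd, which encodes barttin, was at 202 to 372 CPM, and its genotypes overlapped at both times. Atp10b, a phospholipid flippase gene (mean 1078 CPM, 21.8-fold over other nuclei), the splicing factor gene Rbm20 (696 CPM, 18.4-fold) and Sptssb, a subunit of serine palmitoyltransferase (539 CPM, 32.7-fold), were also prominent. No cell type name is given to the set.

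Members near the limits of the rule were compared with those just outside. The 2927 nuclei with exactly 1 marker had 43.7 CPM of Gata3, 22.2 of Pparg and 4.82 of Upk1a. The 193 uroplakin/keratin nuclei with exactly 2 markers had 397, 319 and 106 CPM of these, and the 214 with at least 3 had 598, 803 and 294 CPM. A further 280 nuclei had 2 or more markers but too many UMIs of Aqp2 or Slc12a1, with 390 CPM of Gata3 and 657 CPM of Ankfn1 beside 1694 CPM of Slc12a1.

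RNA of other cell types was present in most members. At least 3 UMIs summed over the markers of some other cell type were found in 440 of the 563, of which 308 were among the uroplakin/keratin and 132 among the Trp63/Psca nuclei. Proximal tubule markers reached 3 UMIs in 56.5% of the uroplakin/keratin nuclei, in 50.9% of endothelial nuclei and in 66.9% of all nonmembers, and all 6 of those genes were lower in the members than in other nuclei (median 0.306-fold). The collecting duct list reached 3 UMIs in 1.72% of the uroplakin/keratin nuclei. No doublets were called, and 27 members had more than 3 times the median UMIs of their library. Pax8, whose promoter drives the transgene, was at 195 to 448 CPM in the uroplakin/keratin nuclei, 701 to 1149 CPM in the Trp63/Psca nuclei and 311 to 402 CPM in all other nuclei.

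The contrasts of time and genotype were fitted to the UMIs of all members summed per library, with edgeR's quasi-likelihood test and Benjamini-Hochberg adjustment over all genes tested at 0.05. No gene (0% of those tested) passed in any contrast: not in Ctrl between times (0 of 9124, with 562 at an unadjusted p under 0.05), in cKOt between times (0 of 8835, with 463), between genotypes at ZT4 (0 of 9195, with 379) or at ZT16 (0 of 8639, with 391), or in the interaction of genotype and time (0 of 9672, with 372). DESeq2 called 0, 1, 2, 0 and 0 genes in the same order, namely Ranbp3l between times in cKOt and Rhobtb1 and Ndrg1 between genotypes at ZT4. On simulated counts for the contrast of genotypes at ZT4, 21% of 2-fold and 87% of 4-fold changes were recovered. The contrasts were therefore also averaged, over genotypes or over times, a step added after the data were seen.

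Averaged over genotypes, 1 of 9672 genes (0.0103%) was called between times in all members and 2 of 8574 (0.0233%) in the uroplakin/keratin nuclei. Both comparisons called Ranbp3l, which encodes a RAN-binding nuclear export protein and rose at ZT16. In the uroplakin/keratin nuclei Ranbp3l was at 232 and 281 CPM in Ctrl ZT4, 91.2 and 271 in cKOt ZT4, 876 and 1084 in Ctrl ZT16 and 1841 and 1138 in cKOt ZT16. The 4 libraries of ZT16 lay above the 4 of ZT4, by 2.51 ± 0.26 on the log2 scale (SE, edgeR adjusted p = 6.75e-05). In cKOt alone the change was 3.07 ± 0.37 (adjusted p = 0.000856, 1 of 7562 genes, 0.0132%), and in Ctrl alone it was 1.96 ± 0.36 (adjusted p = 0.115). Leaving out any 1 library kept the averaged call.

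Fgf1, a ligand of the Fgfr2 and Fgfr3 receptors that these nuclei carry, was the other. It was at 127 and 128 CPM in Ctrl ZT4, 130 and 118 in cKOt ZT4, 250 and 171 in Ctrl ZT16 and 408 and 313 in cKOt ZT16. It rose by 1.15 ± 0.20 on the log2 scale (adjusted p = 0.0496), and the call was lost with the replicate number as a block and without any one library other than cKOt ZT16 replicate 2 (adjusted p up to 0.201). In all members, Ranbp3l rose by 1.75 ± 0.24 (adjusted p = 0.0115), a call that was lost without any single ZT16 library. In the Trp63/Psca nuclei, 2 of 4290 genes (0.0466%) were called between times. Ranbp3l was higher by 1.13 ± 0.19 (adjusted p = 0.0303), and Fhit, a diadenosine triphosphate hydrolase gene, was lower by 1.35 (log2 change -1.35 ± 0.25, adjusted p = 0.0439). Both calls were lost without either library of Ctrl ZT16 or of cKOt ZT16 or without Ctrl ZT4 replicate 1 (adjusted p up to 0.499 for Ranbp3l and 0.302 for Fhit), and that of Fhit also without cKOt ZT4 replicate 2 and with the replicate block.

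None of the clock genes was called between times in the uroplakin/keratin nuclei (0 of the 16 tested of a 22-gene list). The log2 change was above 0 for 10 of the 16, with a median of 0.20 against -0.01 for all genes. Per2, a repressor of the clock, was at 15.4 and 18.7 CPM in Ctrl ZT4, 84.7 and 30.6 in cKOt ZT4, 91.7 and 111 in Ctrl ZT16 and 190 and 80.9 in cKOt ZT16 (1.88 ± 0.37 on the log2 scale, edgeR adjusted p = 0.0629). Nr1d2, which encodes REV-ERB beta, was at 116 and 172, 111 and 72.6, 50.6 and 64.0, and 28.0 and 10.8 CPM in the same order (-1.77 ± 0.33, adjusted p = 0.0594). For Nr1d2 the groups did not overlap between times. Its paralog Nr1d1 had 21 UMIs at ZT4 and 1 at ZT16 (ratio of levels 16.7, interval 2.69 to 692, counting error only), and all 16 UMIs of the output gene Dbp fell at ZT4. Spp1, which encodes osteopontin, was at 1219, 2037, 1238 and 3560 CPM in the ZT4 libraries and at 4507 to 5570 CPM in those of ZT16 (1.40 ± 0.27, adjusted p = 0.0594).

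Genes of urothelial identity gave no call between times. Of 23 genes tested in the list of 30, 0 were called, with a median change of 0.32 on the log2 scale against -0.01 for all genes. Between genotypes 0 of the 23 were called, with a median of 0.16 against -0.01. Gata3 differed by 0.00 ± 0.17 and Upk1a by 0.09 ± 0.19 between times, and Gata3 by 0.31 ± 0.17 and Upk1a by 0.08 ± 0.19 between genotypes (log2, SE). Krt15 differed by 0.96 ± 0.34 between times (adjusted p = 0.491).

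Averaged over times, 7 of 9672 genes (0.0724%) were called between genotypes in all members, 6 of them higher in cKOt, and 4 of 8574 (0.0467%) in the uroplakin/keratin nuclei, all higher in cKOt. The 4 were Npas2, Rhobtb1, Hao2 and Ndrg1, which were also among the 7. Among all members, Rhobtb1 and Hao2 were lost with at least 3 markers (adjusted p = 0.687 and 0.155), Npas2 with at least 3 markers or without members that had 3 UMIs of another cell type (log2 change down to 1.05, adjusted p up to 0.845), and Ndrg1 under 9 of 16 alternatives, including both of these (log2 change down to 0.38, adjusted p up to 0.997). Leaving out the members that had 3 UMIs of another cell type kept only 2 members in cKOt ZT16 replicate 1. The other 3 of the 7 called genes were Folh1, a folate hydrolase of the proximal tubule (2.17), Gas7 (1.21) and Kcnh7 (-2.58, all log2). The call of Folh1 was lost under 8 of 14 alternatives, among them the members without the Trp63/Psca nuclei and leaving out any one library other than Ctrl ZT4 replicate 1 (adjusted p up to 0.346). That of Gas7 was lost under 12 of 15, among them DESeq2, the replicate block, at least 3 markers, the members without the Trp63/Psca nuclei and leaving out any one library other than cKOt ZT4 replicate 1 (log2 change down to 0.43, adjusted p up to 0.993). DESeq2 called 5 genes in all members (Npas2, Hao2, Folh1, Rhobtb1 and Ndrg1). Npas2 encodes a transcription factor that, like CLOCK, pairs with BMAL1. In the uroplakin/keratin nuclei Npas2 was at 69.5 and 81.1 CPM in Ctrl ZT4, 69.6 and 98.2 in Ctrl ZT16, 147 and 191 in cKOt ZT4 and 257 and 318 in cKOt ZT16. The 4 cKOt libraries lay above the 4 Ctrl libraries, by 1.47 ± 0.22 on the log2 scale (edgeR adjusted p = 0.00846), and the call was lost without Ctrl ZT4 replicate 1, cKOt ZT4 replicate 2, Ctrl ZT16 replicate 1 or cKOt ZT16 replicate 2 (adjusted p up to 0.126).

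Rhobtb1, an atypical small GTPase, was at 88.7 and 125 CPM in Ctrl ZT4, 136 and 201 in Ctrl ZT16, 362 and 210 in cKOt ZT4 and 392 and 545 in cKOt ZT16 (1.45 ± 0.22, adjusted p = 0.00846). Ndrg1, a stress-responsive gene, was at 201 and 159, 282 and 427, 736 and 393, and 621 and 577 CPM in the same order (1.20 ± 0.21, adjusted p = 0.0367). Hao2, a peroxisomal hydroxy acid oxidase of the proximal tubule, had 43 UMIs in cKOt and 2 in Ctrl (ratio of levels 26.0, interval 6.78 to 222, counting error only). All 3 were higher in cKOt, though for Ndrg1 the ranges overlapped (159 to 427 against 393 to 736 CPM). The call of Rhobtb1 was lost without Ctrl ZT4 replicate 1, cKOt ZT4 replicate 1, Ctrl ZT16 replicate 1 or cKOt ZT16 replicate 2 (adjusted p up to 0.126), and that of Hao2 without Ctrl ZT16 replicate 1 or cKOt ZT16 replicate 2. Ndrg1 was lost with the replicate block and without any one library other than cKOt ZT4 replicate 2 and Ctrl ZT16 replicate 2 (adjusted p up to 0.336).

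Levels of these genes were also compared in nuclei of another type. In endothelial nuclei of the same libraries Npas2 was at 4.80 and 6.95 CPM in Ctrl ZT4, 28.8 and 33.5 in Ctrl ZT16, 121 and 101 in cKOt ZT4 and 124 and 109 in cKOt ZT16. Rhobtb1 was at 119 to 262 CPM in Ctrl and 368 to 500 CPM in cKOt there, and Hao2 at 3.96 to 10.99 and 38.9 to 109 CPM. Ndrg1 was at 220 to 469 CPM in Ctrl and 431 to 571 CPM in cKOt, so its genotypes overlapped. The endothelial change was 3.05 ± 0.15 for Npas2 (edgeR adjusted p = 7.65e-08), 1.15 ± 0.10 for Rhobtb1 (4.9e-05), 3.56 ± 0.29 for Hao2 (1.98e-05) and 0.69 ± 0.12 for Ndrg1 (0.0231) on the log2 scale. The part that RNA from outside the nucleus plays in the members' values was not tested.

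Arntl, the target of the Cre, was not called in the members. It was at 135 and 96.7 CPM in Ctrl ZT4, 139 and 119 in Ctrl ZT16, 173 and 107 in cKOt ZT4 and 157 and 173 in cKOt ZT16 in the uroplakin/keratin nuclei (0.31 ± 0.23, adjusted p = 0.989). The genotypes overlapped across times. Of the 16 clock genes tested, Npas2 was the 1 called between genotypes in the uroplakin/keratin nuclei. Clock differed by -0.16 ± 0.23 (102 to 184 CPM), Per3 by -1.03 ± 0.41 (adjusted p = 0.989) and Cry1 by 1.33 ± 0.40 (adjusted p = 0.798).

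**Figure D3:**
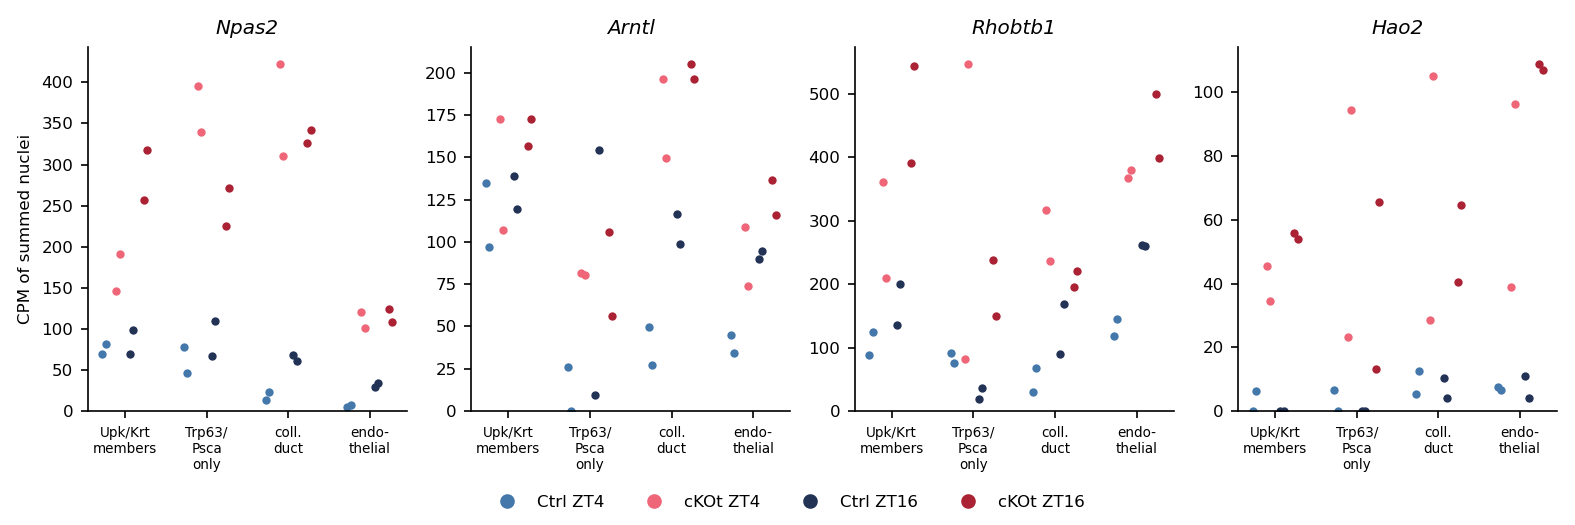
CPM (y axis) of Npas2, Arntl, Rhobtb1 and Hao2 in 4 classes of nuclei; a point is 1 library, colored by group. In the uroplakin/keratin nuclei Npas2 is at 69.5 to 98.2 CPM in Ctrl and 147 to 318 CPM in cKOt, while Arntl overlaps between genotypes, and both are lower in Ctrl ZT4 collecting duct nuclei than in Ctrl ZT4 uroplakin/keratin nuclei.

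In the Trp63/Psca nuclei, 10 of 4290 genes (0.233%) were called between genotypes averaged over times, 4 higher and 6 lower in cKOt. At ZT4 alone 2 of 3719 (0.0538%) were called and at ZT16 alone 5 of 3615 (0.138%). Of the 5 calls at ZT16, 4 were lost without any one of the 4 ZT16 libraries (adjusted p up to 0.668), and 3 of these also with the replicate block. The other was Kcnh7, lost without either cKOt ZT16 library (adjusted p up to 0.101). At ZT4 the call of Sorcs3 was lost without Ctrl ZT4 replicate 2 (adjusted p = 0.126). Kcnh7, a voltage-gated potassium channel of the ERG family, was at 670 and 579 CPM in Ctrl ZT4, 1025 and 981 in Ctrl ZT16, 69.7 and 269 in cKOt ZT4 and 26.4 and 74.8 in cKOt ZT16. It fell by 2.90 on the log2 scale in cKOt (-2.90 ± 0.34, edgeR adjusted p = 0.000119). Sorcs3, a sorting receptor of the VPS10 family, was at 280 and 884, 182 and 427, 34.9 and 28.3, and 13.2 and 37.4 CPM in the same order (-3.71 ± 0.46, adjusted p = 0.000139). No cKOt library reached the lowest Ctrl library for either gene, and both averaged calls were kept under all 10 alternatives.

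Npas2 was higher in cKOt in these nuclei too, at 78.1 and 45.7 CPM in Ctrl ZT4, 67.0 and 109 in Ctrl ZT16, 395 and 340 in cKOt ZT4 and 225 and 271 in cKOt ZT16 (2.00 ± 0.31, adjusted p = 0.0034). It was called at ZT4 alone as well (2.43 ± 0.44, adjusted p = 0.0317), a call that 7 of 10 alternatives lost. Among the other called genes were Auts2, Gas7 and Rhobtb1, which rose, and Sgcz, Pkhd1 and Abi3bp, which fell. Sgcz, a sarcoglycan gene, fell by 1.12 on the log2 scale, Pkhd1, the fibrocystin gene, by 0.95 and Abi3bp by 1.26. Each of these 6 calls was lost without either Ctrl ZT16 library, among others (adjusted p up to 0.633), and the averaged call of Npas2 without Ctrl ZT16 replicate 1 or cKOt ZT16 replicate 2 (adjusted p up to 0.0663).

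In the 563 members, Kcnh7 was also called (log2 change -2.58, adjusted p = 0.0470). Of its 446 UMIs there, 429 were in the Trp63/Psca nuclei and 17 in the uroplakin/keratin nuclei, so the call rests on the former. It was lost under 8 of 14 alternatives, among them leaving out either ZT16 library of either genotype or Ctrl ZT4 replicate 1 (adjusted p up to 1.00).

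**Figure D4:**
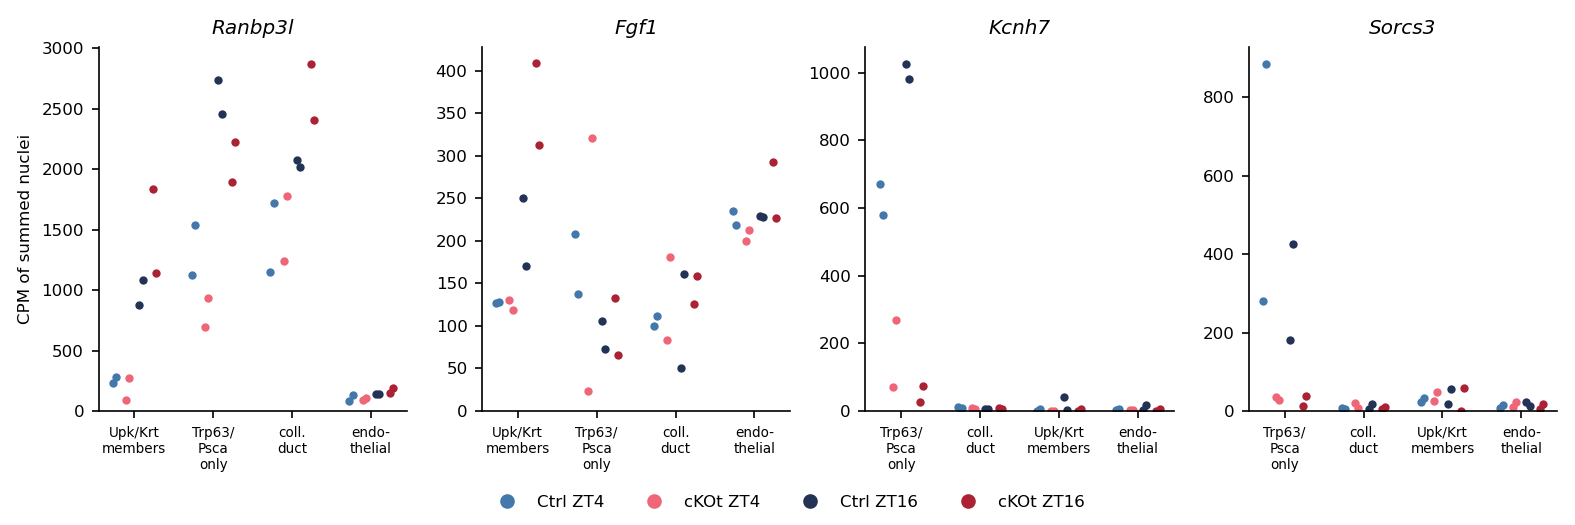
CPM (y axis) of Ranbp3l, Fgf1, Kcnh7 and Sorcs3 in classes of nuclei; a point is 1 library, colored by group. In the uroplakin/keratin nuclei Ranbp3l is at 91.2 to 281 CPM at ZT4 and 876 to 1841 CPM at ZT16, and in the Trp63/Psca nuclei Kcnh7 is at 579 to 1025 CPM in Ctrl and 26.4 to 269 CPM in cKOt.

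The change between genotypes was then compared with that in collecting duct nuclei of the same mice, with the mouse as a block and the difference of the changes as the test. For all members, 1 of 12602 genes (0.00794%) differed at ZT4, 0 of 12795 at ZT16 (508 at an unadjusted p under 0.05) and 1 of 13292 (0.00752%) averaged over times, and 0 of 12808 differed in the change with time in Ctrl (527 unadjusted). For the uroplakin/keratin nuclei the counts were 6 of 12554 (0.0478%), 5 of 12759 (0.0392%), 6 of 13254 (0.0453%) and 18 of 12765 (0.141%). Without Ctrl ZT4 replicate 1 the counts for all members were 73 at ZT4, 8 at ZT16, 12 averaged and 80 for time in Ctrl. Without Ctrl ZT4 replicate 2 they were 34, 8, 44 and 38, so the counts changed with either library left out. For the uroplakin/keratin nuclei they were 31, 11, 9 and 64 without replicate 1 and 33, 11, 45 and 38 without replicate 2, in the same order. With any 1 of the 8 libraries left out they ranged over 5 to 33, 5 to 11, 3 to 45 and 11 to 64.

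Npas2 changed less in the members than in collecting duct nuclei. In collecting duct nuclei it was at 13.8 and 23.5 CPM in Ctrl ZT4, 67.7 and 60.9 in Ctrl ZT16, 422 and 310 in cKOt ZT4 and 327 and 342 in cKOt ZT16. The change at ZT4 was 4.24 ± 0.27 there and 1.15 ± 0.32 in the uroplakin/keratin nuclei, a difference of -3.09 ± 0.42 on the log2 scale (edgeR adjusted p = 5.75e-07). Averaged over times the difference was -1.85 ± 0.28 (adjusted p = 2.89e-05). Both were kept under all 12 alternatives (adjusted p up to 0.0237). Arntl differed in the same direction, by -1.94 ± 0.38 at ZT4 (adjusted p = 0.00501). Collecting duct nuclei had 49.8 and 26.9 CPM of Arntl in Ctrl ZT4 and 197 and 150 in cKOt ZT4. The call for Arntl was lost without Ctrl ZT4 replicate 2 or either cKOt ZT4 library, and with collecting duct nuclei defined by at least 5 UMIs of Aqp2 (adjusted p up to 0.114).

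Ranbp3l rose more with time in the Ctrl uroplakin/keratin nuclei than in the collecting duct, where it was at 1149 and 1723 CPM in Ctrl ZT4 and 2078 and 2021 in Ctrl ZT16. The difference of the changes was 1.42 ± 0.29 (adjusted p = 0.00859), and it was lost without Ctrl ZT4 replicate 2 or Ctrl ZT16 replicate 2 and with at least 5 UMIs of Aqp2 (adjusted p up to 0.248). Slc12a3 was the gene with the smallest adjusted p in that comparison (-4.59 ± 0.53, adjusted p = 6.5e-10). In the uroplakin/keratin nuclei Slc12a3 was at 745 CPM in Ctrl ZT4 replicate 1 and at 68.6 CPM in the other Ctrl ZT4 library.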

How the data were processed

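A frozen transverse slice through the middle of the kidney, with cortex and both parts of the medulla, was profiled from each of 8 mice by 10x snRNA-seq, 1 mouse per library, with nuclei sorted on DAPI. The authors deposited 1 count matrix per library (UMI counts per gene and barcode, not normalized, 32285 features). Per the labels, Cell Ranger 7.1.0, bcl2fastq 2.20 and Seurat 5 were used and the build was GRCm39. The study's methods name an mm10 reference, and counting of intronic reads is not stated there. Nuclear RNA counts also depend on ambient RNA, which was not removed here.

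Quality control kept nuclei that reached 500 genes and 800 UMIs with no more than 2% mitochondrial UMIs. No clustering was done and no doublet caller was run. Classes were set by UMI limits (at least 3 UMIs of Aqp2, Slc12a1 or Flt1 and fewer than 2 rule markers). The members and gene lists were chosen with earlier results of these data known. Named genes were the rule genes, the listed genes, the 5 called genes with the smallest p per contrast and direction whose groups did not overlap, and the 20 genes with the largest fold over other nuclei. Spp1, Bsnd, Slc12a3, the called genes whose groups overlapped (such as Ndrg1 and Fhit) and the leading genes of the Trp63/Psca nuclei were named after their values were seen.

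Counts were summed per library and class. A gene was tested, where some group compared had 5 or more counts in each replicate, with edgeR 4.0.16 (TMM, quasi-likelihood, all 8 libraries in 1 fit, R 4.3.3), with Benjamini-Hochberg adjustment over all genes tested. DESeq2 1.42.0 was the alternative. A comparison with collecting duct nuclei had the mouse as a block. Shares of nuclei were compared with an exact two-sided permutation test over libraries. Each mouse is 1 replicate, and nuclei were not treated as replicates. Ratios of low counts have exact intervals, and all intervals cover counting error only. The fits were tested on simulated data: averaged over times, 42% of 2-fold and 99% of 4-fold changes were recovered among 9199 genes, and at ZT4 21% and 87% among 8963. Unchanged genes called there numbered 6 and 8, and in the averaged time contrast, with no gene changed, 1 was called. Alternatives were the normalization, the count filter, the tool, a replicate block, other definitions of the members and of the other class, and leaving out each library in turn. Results for some genes are not reported here.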

Additional observations from a re-analysis of the deposited data

Results flagged for a closer look

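Each result here is a difference between the change in the members and the change in collecting duct nuclei of the same mice, tested as an interaction with edgeR. For Npas2, the BMAL1 partner, the change between genotypes was smaller in all members, by -2.59 on the log2 scale at ZT4 and by -1.65 averaged over times. In the uroplakin/keratin nuclei the differences were -3.09 and -1.85. Among all members, the difference at ZT4 was lost without cKOt ZT4 replicate 1 (adjusted p = 0.77), and the averaged one without that library, Ctrl ZT16 replicate 2 or either cKOt ZT16 library (adjusted p up to 0.286). Both were also lost with collecting duct nuclei defined by at least 5 UMIs of Aqp2 (-2.45, adjusted p = 0.182, and -1.56, adjusted p = 0.275).

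For Arntl, the difference in the uroplakin/keratin nuclei was -1.94 at ZT4 and -1.25 averaged over times, the latter lost without 4 of the 8 libraries (cKOt ZT4 replicate 2, either Ctrl ZT16 library and cKOt ZT16 replicate 1) and both lost with at least 5 UMIs of Aqp2 (adjusted p up to 0.241). For Ranbp3l, the change between times in Ctrl was larger in the uroplakin/keratin nuclei, by 1.42 on the log2 scale.

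In endothelial nuclei of the same libraries, Arntl was at 44.9 and 34.1 CPM in Ctrl ZT4 and at 109 and 73.8 CPM in cKOt ZT4, and Npas2 at 4.80 and 6.95 and at 121 and 101 CPM. The part of RNA from outside the nucleus was not tested.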

How the results depend on the processing

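Of 190 alternatives for the shares and counts, 94 stayed the same, 84 moved the count, 12 lost the call and 0 reversed it. A count was taken as moved when it changed by over 1.5 times, or to or from 0. The fall in the members' share at ZT16 lost its call at -0.0615 points (at least 3 markers), -0.154 (without Krt19), -0.0524 (thinned) and -0.149 (without Trp63/Psca nuclei). It ranged from -0.218 to -0.134 points with 1 library left out, and that between genotypes from -0.113 to -0.00984.

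In the order Ctrl between times, cKOt between times, genotypes at ZT4, genotypes at ZT16, interaction, times averaged and genotypes averaged, the calls without a count filter were 43, 19, 30, 27, 16, 57 and 50, and with 1 library left out they ranged over 0 to 4, 0 to 2, 0 to 1, 0 to 4, 0 to 1, 0 to 8 and 3 to 7. DESeq2 called 1 gene between times in cKOt and 2 between genotypes at ZT4. With at least 3 markers, 1 gene was called between genotypes at ZT4 and 0 averaged. Without Krt19 there were 1 at ZT4 and 2 at ZT16. Leaving out members with 3 UMIs of another cell type kept 123 members. Of these, 2 were in cKOt ZT16 replicate 1, and every other library had 13 to 25. Contrasts that use cKOt ZT16 then rest in part on 2 nuclei. Under this setting 4 genes were called between times in cKOt, 1 between genotypes at ZT4, 7 between averaged times and 2 between averaged genotypes. Without Trp63/Psca nuclei, 1 was called between times in cKOt, 2 between averaged times and 4 between averaged genotypes.

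Against collecting duct nuclei, in the order genotypes at ZT4, at ZT16, time in Ctrl and genotypes averaged, the calls were 10, 6, 18 and 9 without a filter, 6, 5, 18 and 6 without Trp63/Psca nuclei and 13, 5, 44 and 12 with thick ascending limb nuclei instead. With 1 library left out they ranged over 0 to 73, 0 to 8, 0 to 80 and 0 to 44, and with at least 5 UMIs of Aqp2 the first and last were 0. The cause of these shifts was not tested.

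With the replicate number as a block, genotypes at ZT16 gave 3 calls, and no other count among all members moved by over 1.5 times. For each group the log level of replicate 1 minus that of replicate 2 was taken over 9672 genes. These differences correlated between groups at -0.114 to 0.0377, so the replicate numbers showed no pairing of the mice. For the named genes, 301 of 465 alternatives kept the call, 164 lost it and 0 reversed it. The 30 to 63 uroplakin/keratin nuclei per library hold fewer UMIs than all members, so small changes in them could be missed. Recovery was not simulated for them. In data simulated from all members, 21% of 2-fold and 87% of 4-fold changes between genotypes at ZT4 were recovered.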

Other observations

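Immediate early genes varied between libraries of the uroplakin/keratin nuclei. Egr1, a rapid-response transcription factor, was at 139 and 0 CPM in Ctrl ZT4, 61.9 and 7.64 in cKOt ZT4, 44.3 and 68.3 in Ctrl ZT16 and 274 and 37.7 in cKOt ZT16. Libraries of the same group differed as much as groups did. Fos had 18 UMIs over all 8 libraries and Jun was at 25.0 to 61.9 CPM.

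In the Trp63/Psca nuclei, Slc14a2, the urea transporter of the inner medulla, was at 671 CPM in Ctrl ZT4 replicate 2, 663 CPM in cKOt ZT4 replicate 1 and 336 CPM in Ctrl ZT16 replicate 2, and at 0 to 19.5 CPM in the other 5 libraries.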
